A study of Mus musculus with 4 samples.

Results

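The 8 genes described here, Acat2, Hmgcs1, Fdft1, Sqle, Srebf2, Insig1, Npc1 and Npc2, act in the making of cholesterol, its control and its release from lysosomes. They were taken by name from the authors' table of 17746 gene symbols, and all 8 were in it. RNA sequencing measured them in sorted cells of mouse lung tumours, a model of small cell lung cancer in which Rb1 and Trp53 carry floxed alleles (Rb1fl/fl; Trp53fl/fl). All animals also carried a knocked-in GFP-LC3-RFP-LC3ΔG probe, whose GFP part is degraded by autophagy while its RFP part stays. Live cells with EpCAM on their surface and with RFP were split by GFP, giving 2 GFP-negative and 2 GFP-positive libraries. Neither the Cre driver nor the age of the mice is given in the sources used here, and nothing says that replicates were separate mice. The p-values therefore cover the spread between these libraries, which may be technical. The series' design text gives high autophagic flux to GFP-negative cells, whereas the sample titles give it to GFP-positive ones, so the groups are called by GFP alone. Every log2 change is GFP-negative minus GFP-positive.

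Cells make cholesterol from acetyl-CoA through the mevalonate pathway, squalene and lanosterol. When sterols in the endoplasmic reticulum are scarce, the SREBP-2 transcription factor, the product of Srebf2, is escorted to the Golgi by SCAP, is cut there, and switches on genes of sterol synthesis and uptake. INSIG proteins hold SCAP back when sterols are plentiful. Cholesterol taken up in lipoproteins is freed in lysosomes, where NPC2 passes it to NPC1 for export. In the lung, alveolar type 2 cells put cholesterol into surfactant and alveolar macrophages clear it.

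Promoter sequence was at hand for 5 of the 8 genes, from RefSeq on GRCm38.p6. It is shown for 3 genes that went together within each group (Hmgcs1, Srebf2 and Insig1, described with the control genes below) and, as a contrast, for Npc2, which went the other way. Capitals mark 3 motifs, whose letters were chosen, out of 8 spellings tried, with these promoters and the values of the genes in view: TCACCCCA, a run known from sterol regulatory elements, CCAAT, the NF-Y motif, shown by its complement where it lies on the other strand, and CACGTG, an E-box. Both strands were searched, and no match overlapped another. Each stretch runs 5′ to 3′ on the gene's strand and ends before the start of the gene.
Hmgcs1, chr13:119690174-119690261, plus strand: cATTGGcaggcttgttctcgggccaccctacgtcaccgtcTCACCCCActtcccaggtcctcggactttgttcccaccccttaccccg
Srebf2, chr15:82147067-82147154, plus strand: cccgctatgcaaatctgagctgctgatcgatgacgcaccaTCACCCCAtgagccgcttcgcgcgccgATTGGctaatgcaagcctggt
Insig1, chr5:28071271-28071356, plus strand: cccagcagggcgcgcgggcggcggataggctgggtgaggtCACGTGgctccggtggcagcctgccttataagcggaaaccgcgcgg
Npc2, chr12:84773153-84773227, minus strand: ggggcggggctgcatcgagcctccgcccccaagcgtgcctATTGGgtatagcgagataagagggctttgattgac
One base longer, TCACCCCAC was in 1 of the 5 windows and was passed over for the shorter spelling, which is in 2. TCACCCCA began 137 bases before the RefSeq start of Hmgcs1 and 162 bases before that of Srebf2. It was in 1.34% of 32851 promoter windows of 250 bases, CCAAT in 33.9% and CACGTG in 6.02%. Among the 5 windows of these genes the 3 motifs were in 2, 4 and 1. The window not shown, that of Acat2, held none of the 3 motifs, and Acat2 went the same way as Npc2. Some CCAAT matches lie outside the stretches shown, among them that of Insig1, 216 bases before its RefSeq start. A match is a description of letters and shows no binding.

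The libraries held 69676412 to 73997175 counts in the GFP-negative group and 51994432 to 67536465 in the GFP-positive group. GFP-positive replicate 1 stood apart: it had counts for 6063 of the 17746 symbols, against 15710 to 17617 in the other 3 libraries. Levels are given below as CPM, counts scaled to the TMM-adjusted library size, with replicate 1 of each group before replicate 2. A gene at 0 counts has an upper limit of 3 counts, which is 0.0800 CPM in GFP-positive replicate 1, for counting error only. In bulk samples such as these, fewer cells of a type and less RNA per cell cannot be told apart.

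The enzymes differed in how their libraries were arranged, and none of the 4 passed the test. Acat2 and Fdft1 lay above both GFP-positive libraries in both GFP-negative libraries, Sqle was split by a library at 0 counts, and Hmgcs1 was highest in a GFP-positive library. Acat2 makes acetoacetyl-CoA in the cytosol. It stood at 144 and 406 CPM in GFP-negative libraries and at 0.107 and 80.4 CPM in GFP-positive libraries, the lower of which rests on 4 counts. The groups did not overlap, and the log2 change was 2.77 ± 2.37 (SE, n = 2 per group, edgeR quasi-likelihood adjusted p = 1.0). Hmgcs1, the next step, makes HMG-CoA. Its levels were 86.9 and 8.41 CPM in GFP-negative libraries and 644 and 28.6 CPM in GFP-positive libraries. The highest and the third highest value were in the GFP-positive group, so the groups overlapped. The fitted log2 change of Hmgcs1 came to -2.82 ± 2.19 (edgeR adjusted p = 1.0). It turned to 0.73 when GFP-positive replicate 1 was left out.

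Fdft1, squalene synthase, commits the pathway to sterols. It had 150.2 and 124 CPM in GFP-negative libraries and 0.267 and 86.1 CPM in GFP-positive libraries. Both GFP-negative libraries were above both GFP-positive ones, by 0.80 and 0.53 on the log2 scale for GFP-positive replicate 2, whereas GFP-positive replicate 1 held 10 counts. The fitted log2 change was 1.67 ± 2.80 (edgeR adjusted p = 1.0). It was 0.67 when GFP-positive replicate 1 was left out. Sqle, squalene epoxidase, adds the oxygen that precedes ring closure. Its levels were 177 and 56.6 CPM in GFP-negative libraries and 0 and 65.2 CPM in GFP-positive libraries. The 3 libraries with counts overlapped between groups, and the log2 change was 1.84 ± 3.04 (edgeR adjusted p = 1.0).

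**Figure D1:**
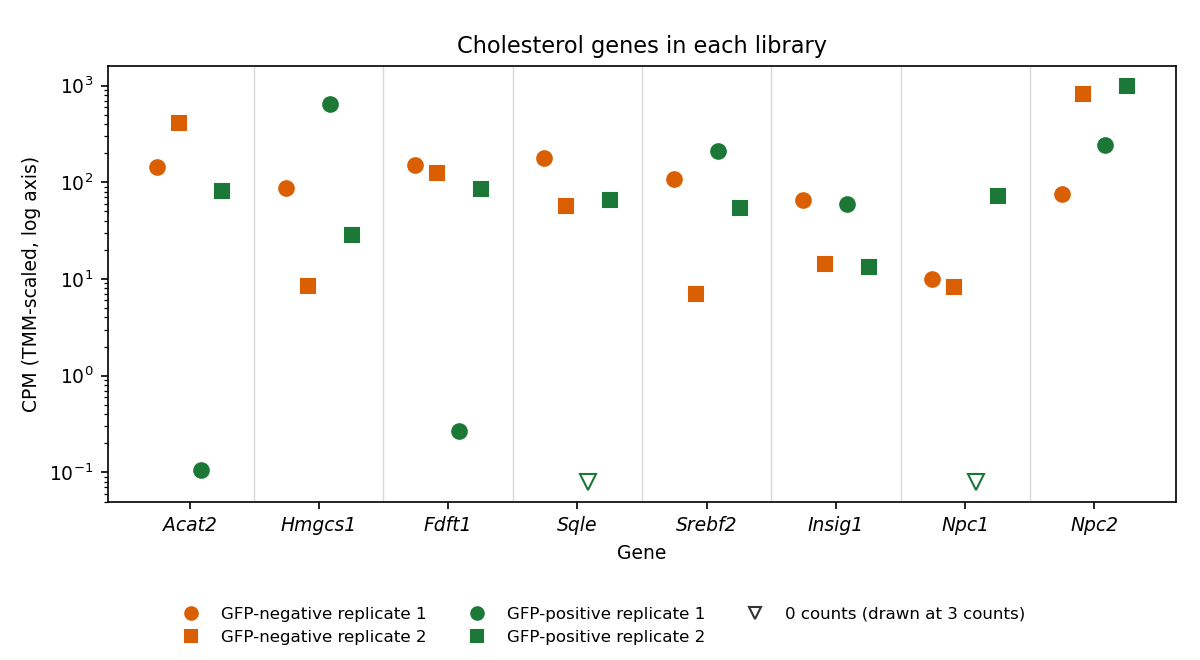
Level of each of the 8 genes in CPM (log axis) in the GFP-negative (orange) and GFP-positive (green) libraries, 1 point per library; open triangles stand for 0 counts, drawn at the level of 3 counts. Acat2, Fdft1, Sqle and Npc1 are at 0 to 10 counts in GFP-positive replicate 1, while Hmgcs1 and Srebf2 are at their highest CPM there. In FPKM, Srebf2 is highest in GFP-negative replicate 1.

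Some enzyme genes lie where another gene could share reads, since no strand mark is described for the libraries. These neighbours, and a relative of Acat2, were looked up after the values were seen. Fdft1 (chromosome 14, 63145150 to 63179578, minus strand, mm10) overlaps the end of the cathepsin gene Ctsb by 774 bases. Ctsb held 518518 counts in GFP-positive replicate 1, where Fdft1 held 10. Hmgcs1 (chromosome 13, 119690379 to 119708260, plus strand) contains the antisense gene Gm48342, which had 27 and 0 counts in GFP-negative libraries and 11 and 11 in GFP-positive libraries. Acat2 (chromosome 17, 12942890 to 12960747, minus strand) overlaps no other annotated gene. The split of reads between it and its close relative Acat3 is uncertain, and the likeness of their sequences was not tested. Acat3 had 8.09 and 42.5 CPM in GFP-negative libraries and 0.267 and 9.22 CPM in GFP-positive libraries, with its lowest and highest library the same as for Acat2. Sqle (chromosome 15, 59315077 to 59331192, plus strand) overlaps no other annotated gene.

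The control genes had counts in every library and varied as much within a group as between groups. Srebf2, which encodes SREBP-2, had 107 and 6.999 CPM in GFP-negative libraries and 213 and 53.9 CPM in GFP-positive libraries. In CPM the lowest library was GFP-negative and the highest GFP-positive, with overlap between them. In FPKM, the authors' values per gene length, GFP-negative replicate 1 was the highest at 20.1, beside 19.1 in GFP-positive replicate 1. Srebf2 had a fitted log2 change of -1.22 ± 2.72 (edgeR adjusted p = 1.0). It came to 0.07 when GFP-positive replicate 1 was left out, and to -0.26 with library totals. Insig1, the retention factor that SREBP-2 itself induces, had 65.4 and 14.4 CPM in GFP-negative libraries and 59.2 and 13.4 CPM in GFP-positive libraries. The groups had nearly the same pair of values in CPM, with a log2 change of 0.14 ± 3.75 (edgeR adjusted p = 1.0). In FPKM the pairs were less alike, at 28.6 and 3.88 in GFP-negative and 12.4 and 3.50 in GFP-positive libraries. The log2 change was 1.04 with library totals and -6.61 with upper quartile scaling, whose limit is given below. The libraries inside each group differed by more than 2 on the log2 scale in CPM. The SE is wide enough that the similar CPM values do not show equal levels. Srebf2 (chromosome 15, 82147181 to 82205379, plus strand) holds Mir33, a microRNA with its own role in cholesterol efflux, in its body, and Insig1 lies on chromosome 5, 28071363 to 28078662, plus strand. Mir33 was not measured apart here.

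Hmgcs1, Srebf2 and Insig1 shared their order inside the groups, which was looked at after the values were seen. GFP-negative replicate 1 exceeded replicate 2 by 3.37, 3.94 and 2.18 on the log2 scale for the 3 genes in that order. GFP-positive replicate 1 exceeded replicate 2 by 4.49, 1.98 and 2.15. Npc2 and Acat2 were lower in replicate 1 of both groups, with log2 differences of -3.44 and -1.497 within the GFP-negative pair. Of the 5186 tested genes above 3 counts in all 4 libraries, 23.7% were higher in replicate 1 in both groups and 25.4% higher in replicate 2 in both. In the 48 pathway genes described below, 21 met that count and 12 of them were higher in replicate 1 in both. The labels give the replicate numbers no shared source, so this is an order of 4 libraries and not a paired effect.

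Both lysosomal export genes had groups that overlapped and their highest level in GFP-positive replicate 2. Npc1, the membrane protein that takes cholesterol out of the lysosome, had 10.1 and 8.22 CPM in GFP-negative libraries and 0 and 71.7 CPM in GFP-positive libraries. Both GFP-negative libraries lay between the GFP-positive ones, and the log2 change was -1.97 ± 4.32 (edgeR adjusted p = 1.0). Without GFP-positive replicate 1 it was -2.98, and without GFP-positive replicate 2 it turned to 12.37. Npc2, the soluble carrier that hands cholesterol to NPC1, had 74.7 and 813 CPM in GFP-negative libraries and 244 and 994 CPM in GFP-positive libraries. Its values alternated between groups, with a log2 change of -0.48 ± 1.47 (edgeR adjusted p = 1.0), the smallest SE of the 8 genes. Npc2 lies on chromosome 12 from 84754562 to 84773152 and Npc1 on chromosome 18 from 12189692 to 12236400, both on the minus strand. Npc1 overlaps the end of Rmc1 by 967 bases, and Rmc1 had 8 counts in GFP-positive replicate 1, where Npc1 had 0.

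Npc2 is abundant in macrophages, whose markers also differed between the libraries. The 22 macrophage markers in the table summed to 1553 and 22929 CPM in GFP-negative libraries and to 124211 and 71918 CPM in GFP-positive libraries, with 3 called lower in the GFP-negative group. Chil3 and Lyz2 alone had 42910 and 43154 CPM in GFP-positive replicate 1. The order of Npc2 was another: GFP-positive replicate 1, with the highest sum, had 244 CPM of Npc2, and GFP-negative replicate 2 had 813 CPM. At 0 counts were Siglec1 in GFP-negative replicate 2 and Ptprc, Itgax and Siglec1 in GFP-positive replicate 1. The hepatocyte markers, 5 in the table, summed to 57.9 and 410.4 CPM in GFP-negative libraries and to 28160.5 and 227 CPM in GFP-positive libraries. Alb, Apoa2 and Cyp2e1, the 3 called lower in the GFP-negative group, had 5080, 18132 and 1970 CPM in GFP-positive replicate 1. In the other 3 libraries they were at 3.09 CPM or less, and the sums there came almost wholly from Ttr and Hp. The part of the macrophage and hepatocyte markers in the levels of the cholesterol genes was not tested. Epcam, the sort marker, was present throughout, at 255 and 88.9 CPM in GFP-negative libraries and 94.0 and 65.9 CPM in GFP-positive libraries. The 12 neuroendocrine markers summed to 5362 and 2149 CPM in GFP-negative libraries and to 3951 and 1354 CPM in GFP-positive libraries. Of these sums, Calca alone made 2744 and 489 CPM in GFP-negative libraries and 3073 and 350 CPM in GFP-positive libraries. In GFP-positive replicate 1, Chga, Chgb and Dll3 were at 0 counts and another 5 of the 12, among them Insm1, at 10 counts or fewer.

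Across the 8 genes, edgeR called 0, against 16 of 16301 tested genes (0.0982%). At an unadjusted p under 0.05 it was again 0 of 8, against 3.1% of all tested genes, and DESeq2's Wald test and limma-voom also called none of the 8. Fitted changes were above 0 for 4 genes and below 0 for 4, with a median of -0.17, against 0.91 over all tested genes. The sign of the median of the 8 depended on the scaling: it was 0.39 with library totals and -3.50 with upper quartile scaling, where all tested genes had medians of 1.33 and 0.43. Upper quartile scaling sets each library by the count at its upper quartile. In GFP-positive replicate 1, 65.8% of the 17746 symbols had 0 counts and another 2023 had 1 to 10. That count is therefore very low there, and values with this scaling are unreliable. Both GFP-negative libraries lay above both GFP-positive ones for 2 of the 8 genes, a share near the 25.2% of all tested genes. Both lay below for 0 of the 8, against 6.63%, and groups that did not overlap in either direction made up 31.8% of all tested genes. The smallest p that an exact permutation of 2 and 2 libraries allows is 0.333.

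**Figure D2:**
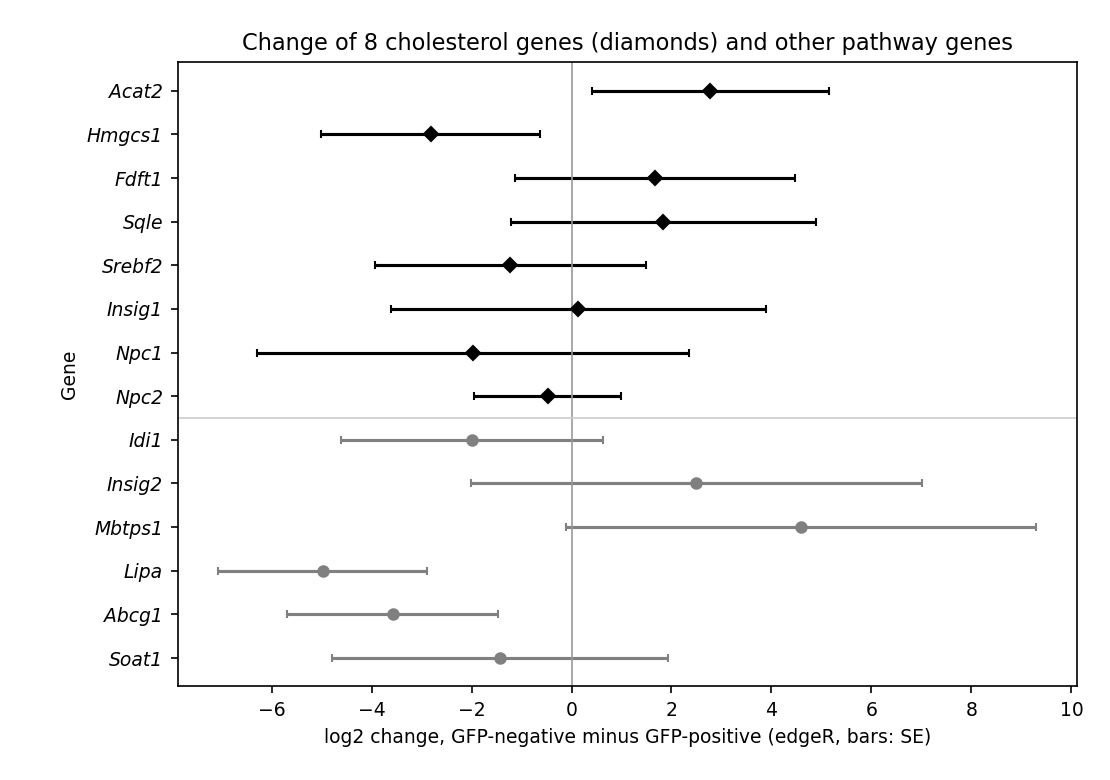
Fitted log2 change (GFP-negative minus GFP-positive) with its SE from edgeR, for the 8 genes (black diamonds) and 6 other pathway genes named by rule (grey circles). The bars of 6 of the 8 genes cross 0; those of Acat2 (2.77 ± 2.37) and Hmgcs1 (-2.82 ± 2.19) do not, and none passed after adjustment.

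The order of the 8 genes changed from library to library. It is given on the FPKM scale, the authors' values per gene length. Acat2 led in both GFP-negative libraries, at 76.5 and 132.8 FPKM. Hmgcs1 led in GFP-positive replicate 1 at 90.5 FPKM, and Npc2 in GFP-positive replicate 2 at 148 FPKM. Npc1 was last in both GFP-negative libraries, at 1.20 and 0.601 FPKM, and was listed at 0 FPKM with Sqle in GFP-positive replicate 1. In GFP-positive replicate 2 Npc1 reached 5.13 FPKM, next to Hmgcs1 at 5.04 and Srebf2 at 6.08, in an order that the other libraries did not share. In all 3 libraries other than GFP-positive replicate 1, Acat2, Fdft1 and Sqle kept that order from high to low.

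The wider pathway was read from 5 lists with 50 genes, of which 48 were in the table and tested, the 8 genes among them. None was called by edgeR, DESeq2 or limma-voom, and edgeR gave 2 at an unadjusted p under 0.05. Fitted changes were above 0 for 26 genes and below 0 for 22, with a median of 0.12. That median was 0.39 with DESeq2's size factors and 0.65 with library totals. It turned to -0.50 with upper quartile scaling, which has the limit given above. Over all tested genes, 11102 of 16301 were above 0 and 5199 below, with the median of 0.91. Sterol synthesis had 15 of 22 genes above 0, close to the share of all tested genes, and a median of 1.36. SREBP control had 6 of 7 above 0 and a median of 0.72, which became -0.02 with upper quartile scaling and -0.75 without GFP-negative replicate 1. Below 0 lay 4 of 6 genes of LDL uptake, 6 of 8 of lysosomal export and 4 of 5 of efflux and esterification, with medians of -0.92, -0.92 and -1.19, all below 0 under the 4 scalings run with edgeR. The medians of LDL uptake and lysosomal export were above 0 in limma-voom (2.34 and 3.46) and in limma on log2(FPKM + 0.1) (0.12 and 0.34). Without GFP-positive replicate 2 all 3 were above 0, at 8.59, 10.28 and 0.88, where all tested genes had a median of 9.95. GFP-positive replicate 1 had 0 counts for 26 of the 48 genes (54.2%), against 65.8% of all symbols. A fit restricted to genes detected in all 4 libraries gave a pathway median of -1.06 over 21 genes and a median of -0.06 over its 5492 genes. The sterol synthesis median there was -0.96 over 9 of the 22 genes. The restriction drops the 13 at 0 counts in GFP-positive replicate 1, so this turn of sign cannot be told apart from the selection.

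Counts in GFP-positive replicate 1 were looked at by range after the values were seen. Of the 48, 26 had 0 counts and 5 had 1 to 10, and the other 17 had 153 or more. Over all symbols, 3.44% had 11 to 100 counts there, and the macrophage, hepatocyte, neuroendocrine and epithelial markers also had 0 genes in that range, so the gap is no trait of the pathway. Enzymes close together in the pathway were on either side of the gap: the step before Fdft1, farnesyl diphosphate synthase (Fdps), had 0 CPM in GFP-positive replicate 1 against 170.4 CPM in GFP-positive replicate 2. Mvd, the decarboxylase earlier in the pathway, had 264 and 51.7 CPM in those libraries. Fdps and Mvd were picked here after their values were seen.

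**Figure D3:**
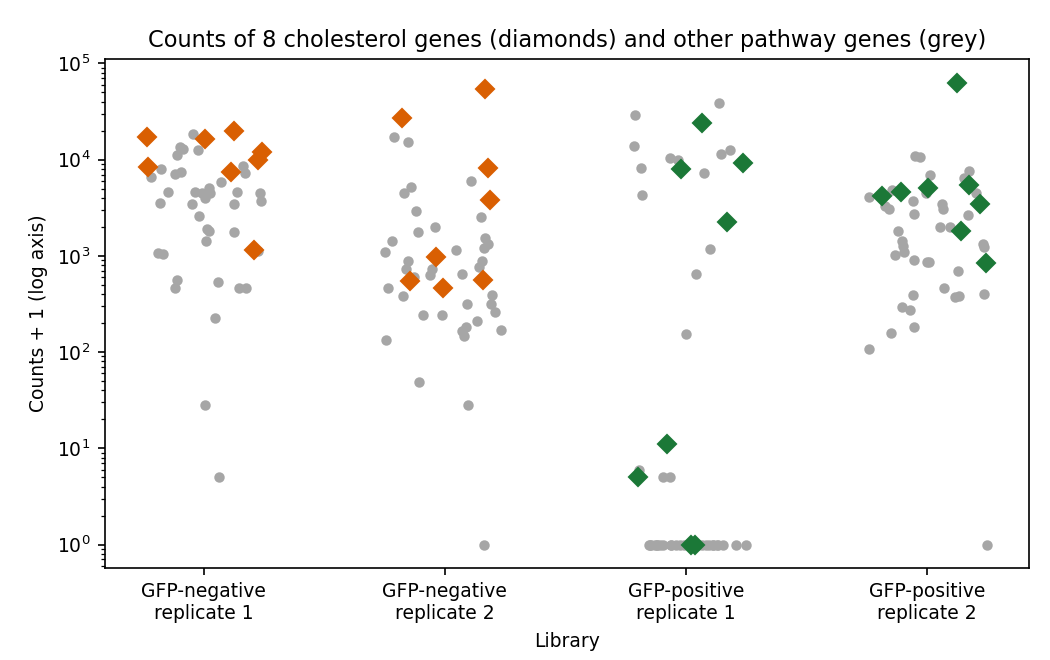
Counts plus 1 (log axis) of the 48 pathway genes in each library, 1 point per gene: the 8 genes described (coloured diamonds) and the other 40 (grey). In GFP-positive replicate 1 the points split between 10 counts or fewer (31 genes) and 153 counts or more (17 genes), while the other 3 libraries hold at most 1 gene at 0.

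Of the synthesis genes named by the rule, Idi1 (isopentenyl diphosphate isomerase) had 76.4 and 13.3 CPM in GFP-negative libraries and 338 and 20.6 CPM in GFP-positive libraries. Its order across the 4 libraries was that of Hmgcs1, and its log2 change was -2.00 ± 2.62, turning to 1.11 without GFP-positive replicate 1. Of the control genes, Mbtps1, the protease that first cuts SREBP in the Golgi, had 97.7 and 6.86 CPM in GFP-negative libraries and 0.107 and 4.24 CPM in GFP-positive libraries. Insig2, the second retention factor, had 44.6 and 17.3 CPM in GFP-negative libraries and 0 and 10.98 CPM in GFP-positive libraries. For both, the groups did not overlap and edgeR's adjusted p was 1.0. Both GFP-negative libraries lay above both GFP-positive ones in CPM for 8 of the 48 pathway genes, against 25.2% of all tested genes. They lay below both for 5 of the 48, against 6.63% of all tested genes.

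Lipa, the lysosomal acid lipase that frees cholesterol from its esters, had the smallest unadjusted p of the pathway. Its levels were 16.9 and 21.2 CPM in GFP-negative libraries and 1034 and 168 CPM in GFP-positive libraries. The groups did not overlap, and the log2 change was -4.98 ± 2.09 (edgeR unadjusted p = 0.0170, adjusted p = 1.0). Without GFP-positive replicate 1 it was -3.14. Abcg1, a cholesterol exporter of macrophages, had 64.0 and 11.02 CPM in GFP-negative libraries and 773 and 120.03 CPM in GFP-positive libraries. The fitted change of Abcg1 was -3.57 ± 2.11 on the log2 scale (edgeR adjusted p = 1.0). With GFP-positive replicate 1 left out it was -1.68. Soat1, which esterifies cholesterol for storage, had 30.8 and 29.7 CPM in GFP-negative libraries and 115 and 47.9 CPM in GFP-positive libraries, without overlap on this scale. In FPKM the groups of Soat1 overlapped, at 4.24 and 2.52 in GFP-negative and 7.61 and 3.96 in GFP-positive libraries. Soat1 had a log2 change of -1.43 ± 3.36 (edgeR adjusted p = 1.0), and one of -0.67 with GFP-positive replicate 1 left out. The summed macrophage markers, given above, were likewise lower in both GFP-negative libraries than in either GFP-positive one, with fitted changes below 0 for 22 of 22, and their part in the levels of these 3 genes was not tested. Gramd1c, of a family of sterol carriers at membrane contacts, had 1.97 and 0.406 CPM in GFP-negative libraries and 0 counts in both GFP-positive libraries. For counting error only, with 3 counts per library as the limit averaged over the group, its GFP-negative mean was at least 18.7-fold higher (edgeR unadjusted p = 0.0399, adjusted p = 1.0). Most of that mean came from GFP-negative replicate 1: with GFP-negative replicate 2 alone it was at least 6.38-fold higher. GFP-positive replicate 1 had 0 counts for 65.8% of all symbols, so its 0 may be a missed gene and both folds may be too high.

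Leaving out single libraries changed the 8 genes unequally. Without GFP-positive replicate 1, fitted changes were 1.77 for Acat2, 0.83 for Sqle, 1.57 for Insig1 and -1.17 for Npc2, and edgeR called 0 of the 8. Without GFP-positive replicate 2, edgeR called 4 of the 8 higher in the GFP-negative group, Sqle, Fdft1, Acat2 and Npc1, with adjusted p = 0.0110, 0.0142, 0.0111 and 0.0261. That fit leaves GFP-positive replicate 1 alone in its group, and these are the genes at 0 to 10 counts in it. The same fit called 7601 genes in all, of 16804 tested.

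**Figure D4:**
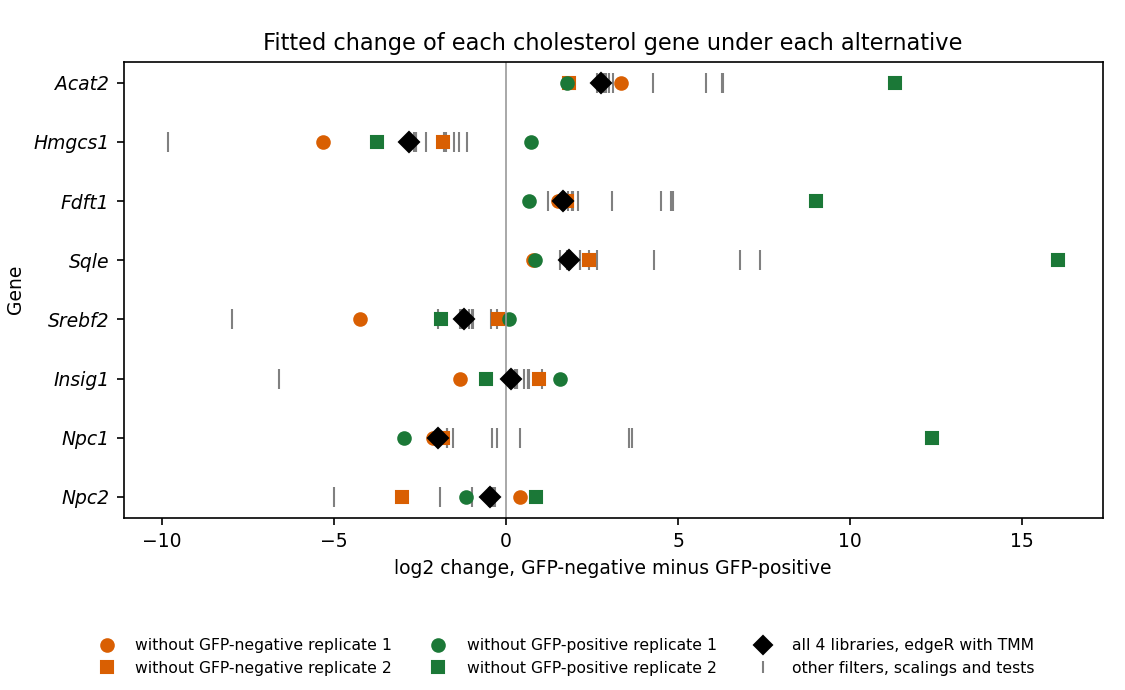
Fitted log2 change of each of the 8 genes (GFP-negative minus GFP-positive) with all 4 libraries (black diamond), without 1 library (coloured marks) and under other filters, scalings and tests (grey ticks). Sqle, Npc1, Acat2 and Fdft1 move to between 8.997 and 16.05 without GFP-positive replicate 2, and Hmgcs1 and Srebf2 cross 0 without GFP-positive replicate 1.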

How the data were processed

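Full-length cDNA was made with an oligo(dT) primer from very little RNA, amplified by PCR and sequenced in pairs, per the labels' protocols, with no molecular identifiers. The authors deposited whole-number counts and FPKM values for each gene symbol and library, per the file headers. The submitters' processing notes name cutadapt 1.9, HISAT2 2.2.1, StringTie 2.1.6, DESeq2, edgeR and build mm10. The counting program, with its annotation and its handling of shared reads, is not given in the sources used here. Amplification can multiply or lose molecules, so counting errors understate the true error.

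Groups came from the sample descriptions. The deposited counts went into edgeR 4.0.16 under R 4.3.3 (filterByExpr, minimum count 10, TMM factors of 1.54 and 0.956 for GFP-negative and 0.722 and 0.944 for GFP-positive libraries, glmQLFit, glmQLFTest), leaving 16301 genes, with p-values adjusted by Benjamini-Hochberg over all of them and called at 0.05. SE is the absolute log2 change over the square root of F. Alternatives used DESeq2 1.42.0 and limma 3.58.1. The code for edgeR, DESeq2 and limma-voom was run on simulated counts. These were drawn for each gene around a mean shared by all libraries, apart from the changes put in. They held no library like GFP-positive replicate 1, so that run does not show how the fits do on these data. Positions are from GENCODE M21, on the same build. The genes and lists were chosen with earlier results of these data known. Beside the 8 genes, the text names from each list up to 2 called genes or, with none called, the 2 with the smallest p, and marks any exception. Of the 10 genes so named, 3 are not reported here and stay in every fit and count.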

Additional observations from a re-analysis of the deposited data

How the results depend on the processing

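The number of genes called over the whole table was 16 with the main settings, 5 among genes with counts in all 4 libraries, 0 with upper quartile scaling (1150 at an unadjusted p under 0.05), 63 with DESeq2's Wald test, 4 with limma-voom and 42 with limma on log2(FPKM + 0.1), and from 1 (without GFP-positive replicate 1) to 7601 (without GFP-positive replicate 2) when 1 library was left out. The 8 genes gave 0 calls in every alternative except without GFP-positive replicate 2 (range 0 to 4), and the 48 pathway genes likewise (0 to 25). With the replicate block 21 genes were called, 0 of them among the 48. Nothing in the labels says that a number pairs libraries, so the numbers were not taken as pairs. Same-numbered libraries deviated from their group means with a correlation of 0.03 across genes. GFP-positive replicate 1 had 0 counts for 65.8% of all symbols, so that correlation cannot show whether the numbers are pairs. The median log2 change of the pathway, 0.12, became 3.49 with the replicate block, 3.47 in limma-voom and 10.93 without GFP-positive replicate 2, where that of all tested genes was 3.92, 3.81 and 9.95. With the replicate block the medians of LDL uptake and lysosomal export were 2.28 and 3.48. Signs turned for Insig1 with upper quartile scaling (-6.61), for Npc1 with the replicate block (3.57), limma-voom (3.67) and limma on log2(FPKM + 0.1) (0.40). With 1 library left out, ranges that crossed 0 were -5.32 to 0.73 for Hmgcs1, -1.33 to 1.57 for Insig1 (-0.57 without GFP-positive replicate 2), -4.25 to 0.074 for Srebf2, -2.98 to 12.37 for Npc1, -3.04 to 0.86 for Npc2 (0.39 without GFP-negative replicate 1) and -3.75 to 1.11 for Idi1. The cause of these turns was not tested. Acat2, Sqle and Fdft1 had a change above 0 in every alternative that tested them; Sqle has no value among genes with counts in all 4 libraries. The median over all tested genes was 0.91 with TMM, 1.12 with DESeq2's size factors, 0.43 with upper quartile scaling and 1.33 with library totals. All values with upper quartile scaling, the turn of Insig1 among them, rest on a very low count in GFP-positive replicate 1. GFP-positive replicate 1, where 4 of the 8 genes had 0 to 10 counts, held 51994432 counts in all, against 67536465 in GFP-positive replicate 2.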

Other observations

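One relative of the first enzyme was looked at after the values were seen. Acat1, the mitochondrial thiolase related to Acat2, had 501 and 358 CPM in GFP-negative libraries and 357 and 214 CPM in GFP-positive libraries. GFP-negative replicate 2 was barely above GFP-positive replicate 1, and the fitted change was 0.59 ± 1.69 on the log2 scale (edgeR adjusted p = 1.0).

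The genes most like Hmgcs1 in pattern, by Euclidean distance of centred log2(CPM + 1) over the 4 libraries among 10193 genes at a mean of 5 CPM or more, were Naa25, Tdg and Kalrn, at distances of 0.38, 0.40 and 0.40. Those most like Npc2 were Sh3bgrl3, Atox1 and Ifnar2, at 0.24, 0.36 and 0.52. The likeness over 4 libraries is a description.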
